A study of Mus musculus with 14 samples.

Results

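Cholesterol and fatty acid synthesis was followed through 30 genes, chosen by name from the 24054 genes of each expression table: the enzymes from acetyl-CoA to cholesterol, the enzymes of fatty acid synthesis and desaturation, and the SREBP factors with their regulators. The genes were measured by low-input RNA-seq in 14 libraries of mouse cells. The groups d0con and d0ko (2 libraries each) were undifferentiated embryonic stem cells (ESCs) at day 0, sorted as Cherry-negative. The paper states that the Foxa2 ko cells lack the Sox17 allele with the Cherry reporter. The groups d3con and d3ko (3 libraries each) were taken from the same lines after 3 days on Wnt3a-secreting feeder cells with 12 ng/ml Activin A, an endoderm protocol, and sorted as Venus-positive. Foxa2 encodes a pioneer transcription factor of endoderm. A Venus reporter replaces its coding region on 1 allele in the con lines (Foxa2-Venus-KO/+) and on both in the ko lines (Foxa2-Venus-KO/Foxa2-Venus-KO). The con cells are therefore heterozygous for Foxa2 and not wild type. In the third set, d2-FVFn and d2-FVFp (2 libraries each), ESCs of the line T119 (TetON-Foxa2-Venus, in a Sox17-Cherry background) received 40 ng/ml doxycycline for 48 h and were sorted as Venus-negative and Venus-positive. Both T119 groups had the drug and carried the transgene. Undifferentiated cells were kept in serum medium and differentiating cells in serum-free medium with a lipid-carrying albumin, so day, medium and feeder cells cannot be told apart in what follows.

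Cells make cholesterol from acetyl-CoA through the mevalonate pathway, which yields isoprenoid units that are joined to squalene, closed into lanosterol and trimmed to cholesterol. Fatty acids are built from the same acetyl-CoA and are then elongated and desaturated. SREBP transcription factors (genes Srebf1 and Srebf2) drive both pathways when sterols in the endoplasmic reticulum run low: Scap escorts them to the Golgi for cleavage, while Insig1 and Insig2 hold them back when sterols are ample. The pathway is known in early embryos for supplying membranes and for the sterol carried by Hedgehog proteins.

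SREBPs bind sterol regulatory elements next to boxes for the factor NF-Y, so the start sites of the genes were read for both, and for a Foxa motif. The windows ran from 250 bases before to 50 bases after a start site in RefSeq (GRCm38.p6). Of the 30 genes, 24 had a window; Fdps, Fdft1, Sqle, Stard4, Scd1 and Scd2 had none in the table. The 4 windows shown are those of the genes with the largest changes at day 3 among those with a window and called in both genotypes (below), led by the only one that held the sterol element core TCACNCCAC. Motif matches on either strand are in capitals: TCACNCCAC, the NF-Y box CCAAT, which appears as ATTGG when it lies on the other strand, and TGTTTAC for Foxa, which had no match in these 4.
Hmgcs1, chr13:119690101-119690400, plus strand: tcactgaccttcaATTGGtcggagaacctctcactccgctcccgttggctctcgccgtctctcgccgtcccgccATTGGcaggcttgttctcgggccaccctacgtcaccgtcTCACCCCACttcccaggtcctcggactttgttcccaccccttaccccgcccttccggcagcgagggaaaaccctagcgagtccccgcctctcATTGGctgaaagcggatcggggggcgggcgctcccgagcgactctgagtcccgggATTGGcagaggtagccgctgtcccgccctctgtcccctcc
Cyp51, chr5:4104648-4104947, minus strand: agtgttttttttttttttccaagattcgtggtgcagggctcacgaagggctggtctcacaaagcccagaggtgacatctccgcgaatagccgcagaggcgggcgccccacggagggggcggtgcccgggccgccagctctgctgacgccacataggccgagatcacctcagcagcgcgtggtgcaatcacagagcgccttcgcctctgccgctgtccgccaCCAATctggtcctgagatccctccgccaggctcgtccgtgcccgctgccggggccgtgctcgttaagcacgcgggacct
Tm7sf2, chr19:6067801-6068100, minus strand: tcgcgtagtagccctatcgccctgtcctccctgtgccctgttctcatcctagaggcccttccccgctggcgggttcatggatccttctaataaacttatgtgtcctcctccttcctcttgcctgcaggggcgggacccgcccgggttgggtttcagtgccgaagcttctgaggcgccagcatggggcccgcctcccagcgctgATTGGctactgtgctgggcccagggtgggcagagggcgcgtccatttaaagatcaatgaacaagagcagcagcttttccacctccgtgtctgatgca
Msmo1, chr8:64733529-64733828, minus strand: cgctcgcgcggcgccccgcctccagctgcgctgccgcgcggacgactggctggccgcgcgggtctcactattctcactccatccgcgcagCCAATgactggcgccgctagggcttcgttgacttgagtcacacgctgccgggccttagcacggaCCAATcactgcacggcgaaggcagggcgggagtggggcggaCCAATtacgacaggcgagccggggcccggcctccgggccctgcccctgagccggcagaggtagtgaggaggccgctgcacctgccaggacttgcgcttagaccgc
In Hmgcs1 the element started 137 bases before the start site, and NF-Y boxes lay on both sides of it. NF-Y boxes were found in 20 of 24 genes (83.3%), against 41.1% of the 27025 genes with a window in the table. That comparison set was not limited to genes expressed in these cells. The 4 genes without a box were Acat2, Scap, Acaca and Elovl6. The sterol element core was found in 1 of 24 genes, Hmgcs1, against 1.44% of all genes. The Foxa motif was found in 1 of 24 genes, Elovl6, against 4.05% of all genes. The motifs did not overlap each other in the windows shown. A match describes the letters only, and other forms of the sterol element were not searched.

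Libraries held 14142788 to 27278237 expected counts, and each of the 30 genes was counted in every library, with the lowest count (104) for Tm7sf2. Foxa2 itself, the check of the labels, had 58.6, 34.8 and 54.5 TPM in d3con and 0.11, 0.15 and 0.19 TPM in d3ko, and 160 to 169 TPM in d2-FVFp against 2.01 to 2.99 TPM in d2-FVFn. The d3ko libraries were not alike. The summed level of 6 pluripotency markers was 15431 and 17364 TPM in replicates 1 and 3, which the study lists as the same clone. It was 2668 TPM in replicate 2, the other clone, and 562 to 985 TPM in d3con. Most of the d3ko sum was Dppa5a, at 14200, 1866 and 15543 TPM in replicates 1, 2 and 3. Sox2, Zfp42 and Klf4 were likewise lowest in replicate 2. Pou5f1 (522, 501 and 944 TPM) and Nanog (254, 240 and 345 TPM) were in replicate 2 close to replicate 1. In d3con Pou5f1 had 63.5, 319 and 59.7 TPM. The summed level of 6 endoderm markers was 29 to 141 TPM in d3ko, 760 to 1278 TPM in d3con and 5.14 to 6.87 TPM at day 0, so the endoderm label of d3ko is only weakly borne out by its markers. Replicates 1 and 3 of d3con likewise share a clone, so p-values measure the spread between libraries of few clones. In d3ko replicate 2 the genes of chromosome 8 lay 0.43 below the other autosomes on the log2 scale (median, relative to replicates 1 and 3, with other autosomes between -0.01 and 0.08), and Mvd and Msmo1 lie on it. All 8 fibroblast markers were detected at day 3: their summed level was 60.2 to 308 TPM in d3con, 136 to 371 TPM in d3ko, 12.5 and 15 TPM in d0con, 38.3 and 137 TPM in d0ko, and 2.73 to 4.07 TPM in the T119 cells, whose culture had no feeder cells. Their part in the results was not tested. In bulk RNA, fewer cells of a type and less RNA per cell cannot be told apart.

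**Figure D1:**
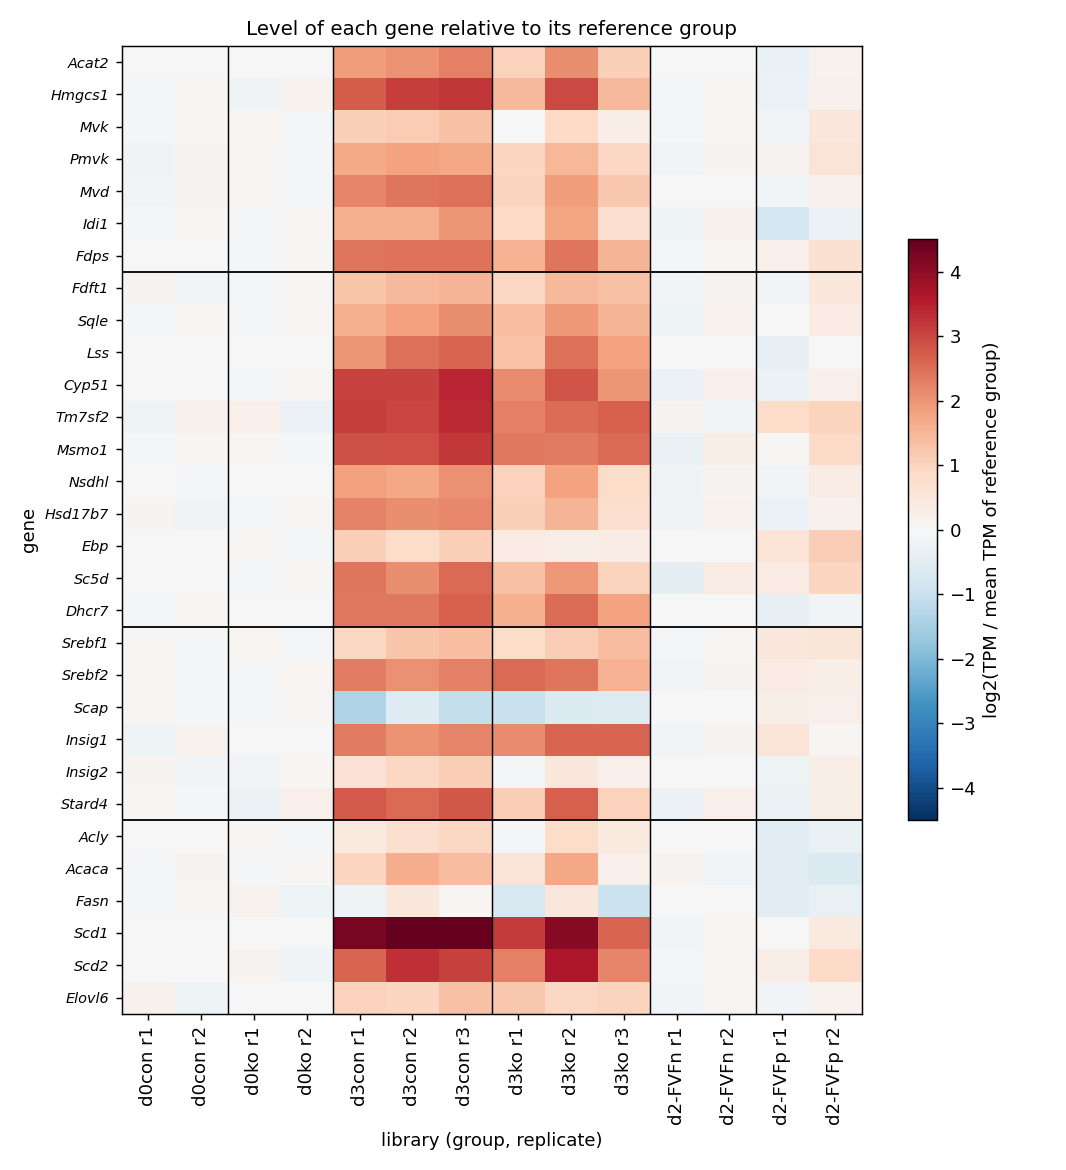
Level of each of the 30 genes (rows, grouped by role: mevalonate steps, squalene and sterol steps, regulation and transport, fatty acid synthesis) in each library (columns), as log2 of its TPM over the mean TPM of its reference group: d0con for con libraries, d0ko for ko libraries and d2-FVFn for the T119 libraries. The day 3 columns are red for nearly all genes, paler in d3ko r1 and r3 than in d3ko r2. Scap is blue in all day 3 columns. Fasn is blue in d3ko r1 and r3 and pale in the other day 3 columns. The T119 columns are pale throughout.

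In control cells most of the cholesterol pathway, several of its regulators and both desaturases were higher at day 3. In d3con against d0con, 22 of 30 genes were called higher (adjusted p under 0.05 and more than 2-fold, edgeR), against 20.6% of all 13899 genes tested, and 1, Scap, was called lower, against 14.6%. The median log2 fold change was 1.91 for the 30 genes and 0.07 for all genes tested. With no minimum fold, 27 genes were higher, against 27.0% of all genes. In 28 of 30 genes all d3con libraries had a higher TPM than all d0con libraries, which was so for 45.5% of all genes tested. The median gene stood at 3.81, 4.07 and 4.51 times its day 0 mean in the 3 d3con libraries.

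Of the 7 mevalonate genes, 6 were called higher at day 3 in control cells. Hmgcs1, which makes HMG-CoA at the entry of the pathway, had 68.6 and 73.5 TPM in d0con and 466, 611 and 661 TPM in d3con. The log2 fold change was 2.82 (SE 0.44, adjusted p = 0.00111, n = 3 and 2 libraries), the largest of the group, and the groups did not overlap. Fdps, which joins isoprenoid units to farnesyl diphosphate, was the most abundant of the 30 genes per transcript at day 3. It rose from 205 and 215 TPM to 1118, 1130 and 1143 TPM (log2 fold change 2.21, SE 0.25, adjusted p = 0.000325). Mvd, the last step to the isoprenoid unit, rose from 57.3 and 67.5 TPM to 284, 332 and 347 TPM (log2 fold change 2.15, SE 0.24, adjusted p = 0.000314). These 3 genes moved by more than 4-fold, and among them the day 3 spread between libraries was widest in Hmgcs1 and narrowest in Fdps. Acat2, which condenses the first acetyl-CoA units, rose by 1.86 (SE 0.30, adjusted p = 0.0012), and Pmvk and Idi1, a kinase and the isomerase of the route, rose by 1.53 each (SE 0.19 and 0.28) on the log2 scale. Mvk, the mevalonate kinase, differed by 0.98 on the log2 scale (SE 0.24, adjusted p = 0.00784), just under the 2-fold minimum.

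Of the 11 squalene and sterol genes, 10 were called higher, and the largest changes were in the steps right after lanosterol. Cyp51, the lanosterol demethylase, had 23.3 and 24.2 TPM in d0con and 196, 195 and 257 TPM in d3con (log2 fold change 2.98, SE 0.25, adjusted p = 0.00015). Tm7sf2, a sterol reductase that acts next, had 6.48 and 8.56 TPM and then 65.3, 61 and 77.5 TPM (log2 fold change 2.97, SE 0.25, adjusted p = 0.00015). Msmo1, the methyl sterol oxidase, had 95 and 107 TPM and then 739, 756 and 910 TPM (log2 fold change 2.78, SE 0.15, adjusted p = 5.3e-05). All 3 stood apart between the days by several times the spread within a day. Dhcr7, which completes one branch to cholesterol, rose by 2.28 (SE 0.25), Sc5d by 2.17 (SE 0.27), and Lss, which closes the sterol rings, by 2.17 (SE 0.31) on the log2 scale. Hsd17b7 and Nsdhl, which act with Msmo1 on the same methyl groups, rose by 1.96 (SE 0.25) and 1.68 (SE 0.27). Fdft1, which makes squalene, rose by 1.21 (SE 0.16), and Sqle, which oxidises it, by 1.65 (SE 0.19). The adjusted p-values of these 7 genes lay between 0.000314 and 0.00119. Ebp, a sterol isomerase, stood 0.79 higher on the log2 scale (SE 0.15, adjusted p = 0.00237). The SMART-Seq libraries carry no strand, and 18.3% of the exon bases of Fdft1 are shared with Ctsb on the other strand and 12.1% of those of Tm7sf2 with Vps51 on the same strand, so part of their reads could belong to those genes.

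Among the 6 regulators, 3 were called higher and 1 lower. Srebf2, the SREBP that favours cholesterol genes, had 44.9 and 41.9 TPM in d0con and 213, 181 and 208 TPM in d3con (log2 fold change 2.01, SE 0.27, adjusted p = 0.000582). Insig1, which retains SREBP, had 15.2 and 19.6 TPM and then 88.7, 71.5 and 78.9 TPM (log2 fold change 2.0, SE 0.21, adjusted p = 0.000273). The transcripts of the SREBP and of its retaining protein thus rose by a like amount, and protein levels were not measured here. Stard4, a sterol carrier, had 6.37 and 5.57 TPM and then 40, 34.9 and 41.7 TPM (log2 fold change 2.5, SE 0.49, adjusted p = 0.00301). Scap, the SREBP escort, went the other way: it had 29.7 and 27.8 TPM in d0con and 11.2, 19.2 and 13.8 TPM in d3con, and fell by 1.17 on the log2 scale (SE 0.21, adjusted p = 0.00186). Srebf1, the SREBP that favours fatty acid genes, and Insig2 stood higher by 0.97 (SE 0.17, adjusted p = 0.00176) and 0.69 (SE 0.19, adjusted p = 0.0145) on the log2 scale, under the 2-fold minimum.

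The 6 fatty acid genes split by step. Both desaturases rose, and Scd1 had the largest change of the 30 genes: 6.3 and 6.16 TPM in d0con and 121, 139 and 161 TPM in d3con (log2 fold change 4.29, SE 0.41, adjusted p = 0.000211). Scd2 had 73.7 and 75.8 TPM and then 459, 737 and 631 TPM (log2 fold change 2.82, SE 0.43, adjusted p = 0.000969). Scd1 and Scd2 are paralogs, so the authors' sharing of multiply matching reads could move counts between them. Acaca, the acetyl-CoA carboxylase, rose by 1.13 (SE 0.39, adjusted p = 0.0352). Fasn, the fatty acid synthase, had 135 and 149 TPM in d0con and 122, 196 and 151 TPM in d3con (log2 fold change -0.07, SE 0.38, adjusted p = 0.887). Its libraries overlapped, the only such case among the 30 genes. On the log2 scale Acly, which supplies acetyl-CoA to the cytosol, differed by 0.51 (SE 0.22, adjusted p = 0.0737) and Elovl6, a fatty acid elongase, by 0.90 (SE 0.17, adjusted p = 0.0027).

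**Figure D2:**
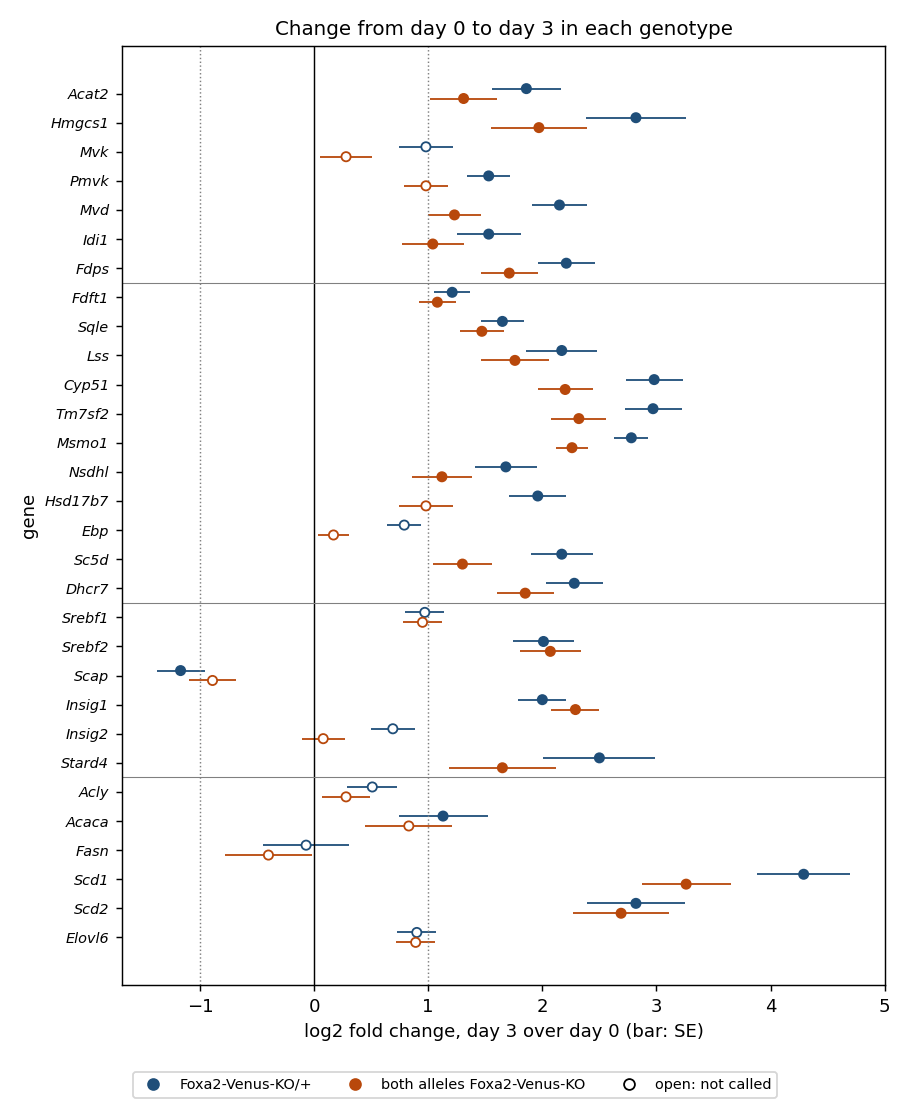
Log2 fold change from day 0 to day 3 (x axis, bars: SE) for each of the 30 genes (y axis, grouped by role) in Foxa2-Venus-KO/+ cells (blue) and in cells with both alleles Foxa2-Venus-KO (orange); filled points passed the call, and dotted lines mark a 2-fold change. Scd1 lies farthest right at 4.29 in control cells, and Scap lies left of 0 in both genotypes. The 2 points lie closest together for Elovl6, Srebf1 and Srebf2, followed by Fdft1 and Scd2.

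Cells without Foxa2 raised much of the same pathway. In d3ko against d0ko, 19 of 30 genes were called higher, against 11.6% of all genes tested, and none lower, against 5.72%. The median log2 fold change was 1.26, against 0.07 over all genes tested. With no minimum fold 23 genes were higher, against 15.9% of all genes, and Scap was lower (-0.89, SE 0.21, adjusted p = 0.0135). At an unadjusted p under 0.05 the lower count was likewise 1, and DESeq2 called 19 higher and 0 lower. In 25 of 30 genes all d3ko libraries had a higher TPM than both d0ko libraries, against 36.6% of all genes. By role, 5 of 7 mevalonate genes, 9 of 11 squalene and sterol genes, 3 of 6 regulators and 2 of 6 fatty acid genes were called higher. This contrast and that of the control cells share no library.

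The largest changes in these cells were in the desaturases. Scd1 had 7.07 and 6.83 TPM in d0ko and 62, 120 and 43.2 TPM in d3ko (log2 fold change 3.26, SE 0.39, adjusted p = 0.00107), and Scd2 had 71.9 and 59.1 TPM and then 318, 812 and 304 TPM (log2 fold change 2.69, SE 0.42, adjusted p = 0.00303). Tm7sf2 rose by 2.32 (SE 0.24), Msmo1 by 2.26 (SE 0.14) and Cyp51 by 2.20 (SE 0.24), the 3 largest of the sterol group, with adjusted p-values of 0.00076, 0.000179 and 0.000839. Insig1 had 15.5 and 15.5 TPM in d0ko and 67.8, 94.5 and 94.5 TPM in d3ko (log2 fold change 2.29, SE 0.21, adjusted p = 0.000656). Srebf2 had 37 and 41.3 TPM and then 229, 207 and 117 TPM (log2 fold change 2.07, SE 0.27, adjusted p = 0.00156). Insig1 lay close to the d3con range in all 3 d3ko libraries, and Srebf2 in replicates 1 and 2 but not in replicate 3. In the mevalonate group Hmgcs1 rose by 1.97 (SE 0.42), Fdps by 1.71 (SE 0.25), Acat2 by 1.31 (SE 0.29), Mvd by 1.23 (SE 0.23) and Idi1 by 1.04 (SE 0.27), with adjusted p-values of 0.00212 to 0.0208. Stard4, Lss, Dhcr7, Sqle, Sc5d, Nsdhl and Fdft1 rose by 1.08 to 1.85, with adjusted p-values of 0.00143 to 0.0279. Of the other 11 genes, Hsd17b7 and Pmvk, at 0.98 each, Srebf1 at 0.95 and Elovl6 at 0.89 passed the adjusted p but not the minimum fold. Acaca (0.83), Mvk (0.28), Acly (0.28), Ebp (0.17), Insig2 (0.08) and Fasn (-0.40) had adjusted p-values of 0.128 to 0.776. Fasn depended on d3ko replicate 2: without that library its value was -0.98 (SE 0.21, adjusted p = 0.0107, edgeR). It had 138 and 108 TPM in d0ko and 75.1 and 63.3 TPM in d3ko replicates 1 and 3, which are the same clone. The count moved with single libraries, and so did the share of all genes called higher. It was 12 without d0ko replicate 2 (against 4.01% of all genes), 13 without d0ko replicate 1 (against 2.49%) and 13 without d3ko replicate 2 (against 11.2%). It was 22 without d3ko replicate 1 (against 10.5%) and 22 without d3ko replicate 3 (against 13.1%).

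The d3ko libraries spread more widely in these genes than the d3con libraries. In replicate 2 the median gene of the 30 stood at 3.73 times its d0ko mean, and in replicates 1 and 3 at 2.11 and 2.19 times. Hmgcs1 had 613 TPM in replicate 2 and 219 and 217 TPM in replicates 1 and 3. Stard4 had 38 TPM against 12.5 and 12 TPM, and Fasn had 177 TPM against 75.1 and 63.3 TPM. Replicate 2 lay above both other libraries in 23 of 30 genes, against 38.7% of all genes tested. The 7 exceptions were Tm7sf2, Msmo1, Ebp, Srebf1, Srebf2, Scap and Elovl6. Compared with the d3con range, 27 and 26 of the 30 genes lay below every d3con library in replicates 1 and 3, but 9 of 30 in replicate 2. The same replicate 2 had the low pluripotency sum given above. It also had the highest summed level of 6 mesoderm markers (309 TPM, against 29.1 and 67.6 TPM in replicates 1 and 3) and the lowest of the fibroblast markers (136 TPM, against 298 and 371 TPM). Its endoderm sum was the highest (141 TPM, against 78.4 and 29 TPM) through Gata4 and Cer1. Hhex and Hnf4a were lowest in it, and Sox17 and Dkk1 lay between. In d3con, replicate 2 likewise had the highest mesoderm sum (169 TPM, against 20.6 and 36.3 TPM) and the lowest fibroblast sum (60.2 TPM, against 308 and 220 TPM). Its pluripotency sum was the highest and its endoderm sum the lowest of d3con. Its median gene, at 4.07 times day 0, lay between the other d3con libraries. The d3ko replicate 2 is the only d3ko library of its clone, so clone and library cannot be told apart. The part of these marker lists in this split was not tested.

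**Figure D3:**
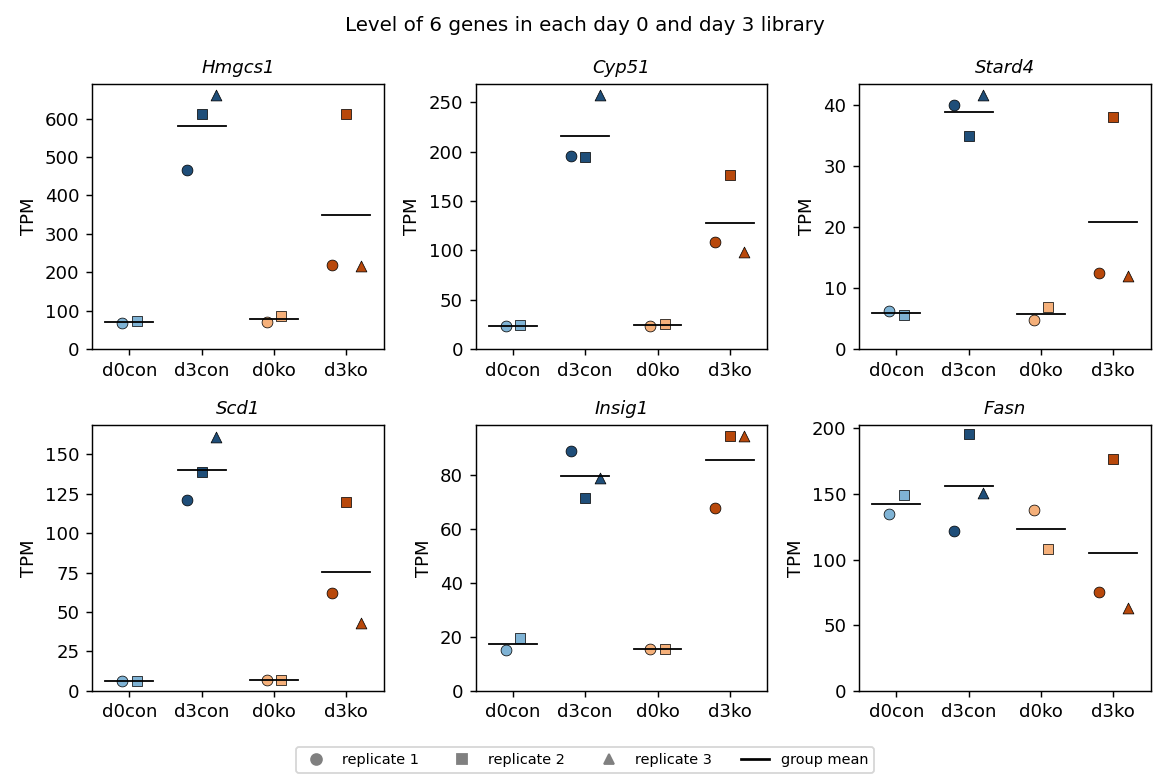
TPM (y axis, from 0) of 6 genes in each day 0 and day 3 library; the marker shape gives the replicate and the black line the group mean. Hmgcs1, Cyp51, Stard4, Scd1 and Fasn have d3ko replicate 2 (square) above replicates 1 and 3, whereas Insig1 has d3ko libraries of 67.8 to 94.5 TPM beside d3con libraries of 71.5 to 88.7 TPM.

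**Figure D4:**
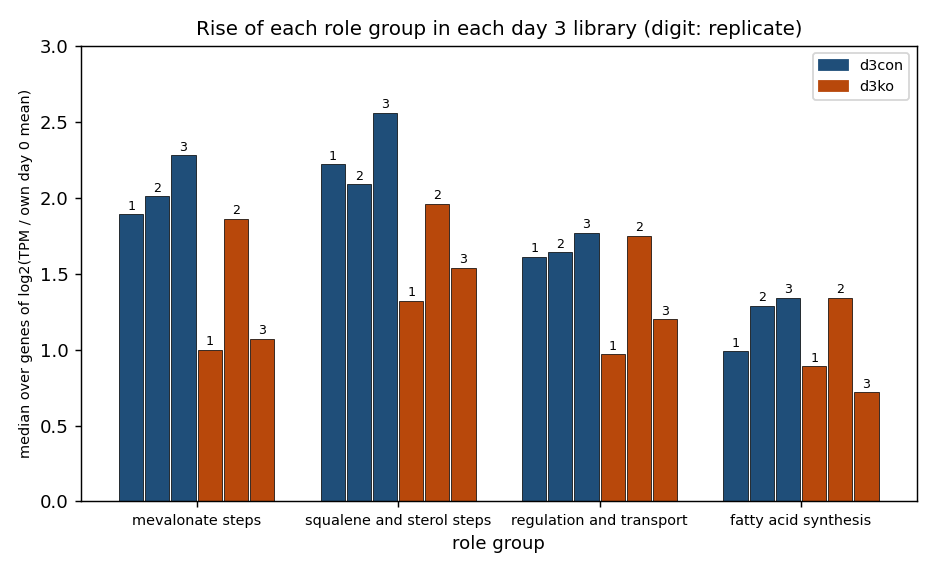
Median over the genes of each role group (x axis) of log2 TPM over the mean of the same genotype at day 0 (y axis), for each day 3 library (bars, with the replicate number on top). For the mevalonate steps the d3con libraries lie at 1.89 to 2.28, d3ko replicate 2 at 1.86, and d3ko replicates 1 and 3 at 1.0 and 1.07.

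Between the genotypes at day 3, no gene of the 30 passed the call. In d3ko against d3con 0 were higher, against 4.75% of all genes, and 0 lower, against 3.51%, also with DESeq2. At an unadjusted p under 0.05, 16 were lower, against 12.8% of all genes, and none higher, against 15.1%. The median log2 fold change was -0.54, against 0.02 over all genes tested, and 27 of 30 values were below 0. With no minimum fold, 6 genes were lower, against 4.89% of all genes: Mvd (-0.96, SE 0.20, adjusted p = 0.0206), Tm7sf2 (-0.84, SE 0.20, adjusted p = 0.0277), Cyp51 (-0.76, SE 0.20, adjusted p = 0.0424), Msmo1 (-0.63, SE 0.12, adjusted p = 0.0157), Ebp (-0.60, SE 0.13, adjusted p = 0.0227) and Pmvk (-0.60, SE 0.16, adjusted p = 0.0476). DESeq2 gave 9 under the same rule. In 9 of 30 genes every d3ko library lay below every d3con library, against 12.3% of all genes. These were the same 6 genes with Mvk, Sc5d and Scd1. For Ebp the values were 86.9, 71.8 and 85.6 TPM in d3con and 55.3, 52.5 and 54.3 TPM in d3ko. For Mvd they were 284, 332 and 347 TPM and 125, 227 and 143 TPM. Ebp was thus lower by a like amount in all 3 d3ko libraries, while Mvd was closest to the controls in replicate 2, in which its chromosome was low.

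Among the regulators the largest difference was in Stard4 (-0.92, SE 0.40, adjusted p = 0.168), and among the fatty acid genes in Scd1 (-0.91, SE 0.30, adjusted p = 0.086). Insig1 (0.09, SE 0.17), Scap (0.04, SE 0.19) and Elovl6 (0.16, SE 0.15) were the 3 genes with values above 0. Srebf2 (-0.13, SE 0.22) and Srebf1 (-0.18, SE 0.15) were near them. A p-value that misses the threshold does not show that these levels were equal.

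The comparison turned on d3ko replicate 2. Without it, 9 genes were called lower, against 7.02% of all genes: Stard4 (-1.66), Scd1 (-1.40), Hmgcs1 (-1.39), Mvd (-1.25), Fasn (-1.16), Acaca (-1.11), Sc5d (-1.10), Cyp51 (-1.04) and Acat2 (-1.04), with adjusted p-values of 0.000378 to 0.00427. The median log2 fold change was then -0.85, and 25 genes were lower with no minimum fold, against 12.8% of all genes. The 2 remaining d3ko libraries come from 1 clone, so these values compare that clone with the controls. Insig1 (0.03), Srebf2 (-0.20), Srebf1 (-0.16), Scap (0.00) and Elovl6 (0.23) were not among the 25. For Msmo1, on the chromosome that was low in replicate 2, the value was -0.58 without that library and -0.63 with it.

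Whether the rise itself differed between the genotypes was tested by the interaction of genotype and day. No gene of the 30 was called, higher or lower, and neither was any of the 13899 genes (0% each way). Foxa2 itself, the deleted gene, missed the threshold in this edgeR test (-7.68, adjusted p = 0.0544). The absence of edgeR calls therefore does not show an equal rise in both genotypes. DESeq2 called none of the 30 and, of all genes, 299 higher and 266 lower. At an unadjusted p under 0.05, 7 of 30 were negative (a smaller rise in ko cells) and none positive, against 6.45% and 6.78% of all genes. The median was -0.51, against 0.00 over all genes tested. The largest values by role were Scd1 (-1.03, SE 0.48, adjusted p = 0.399), Hsd17b7 (-0.98, SE 0.33, adjusted p = 0.26), Mvd (-0.92, SE 0.31, adjusted p = 0.26) and Stard4 (-0.85, SE 0.63, adjusted p = 0.608). Without d3ko replicate 2, 7 were called, against 3.25% of all genes: Stard4 (-1.58), Scd1 (-1.52), Hmgcs1 (-1.51), Mvd (-1.21), Hsd17b7 (-1.20), Sc5d (-1.16) and Cyp51 (-1.06), with adjusted p-values of 0.00434 to 0.0298.

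Before differentiation no difference between the genotypes was called. In d0ko against d0con, none of the 30 genes and none of all genes tested were called (0% higher and 0% lower). No gene of the 30 reached an unadjusted p under 0.05, against 151 higher and 44 lower among all genes, and DESeq2 called none of the 30 and 1 of all genes, lower. Log2 fold changes of the 30 genes ran from -0.25 to 0.57, with a median of -0.07. The largest was Hsd17b7 (0.57, SE 0.26, adjusted p = 1), a gene of low level with 3.39 and 2.81 TPM in d0con and 4.59 and 4.89 TPM in d0ko. In the other roles the largest values were Scap (-0.25, SE 0.23), Fasn (-0.25, SE 0.42) and Hmgcs1 (0.11, SE 0.43), each at an adjusted p of 1. The summed level of the 30 genes was 1751 and 1819 TPM in d0con and 1737 and 1704 TPM in d0ko, against 6436 to 7920 TPM in d3con and 4003, 6873 and 4175 TPM in d3ko. Of the fibroblast markers, all 8 had a value above 0 in d0ko against d0con (log2 fold change 0.93 to 4.21, 5 at an unadjusted p under 0.05, none past the adjusted threshold). Their part in these values was not tested.

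With induced Foxa2 in stem cells, no gene of the 30 passed the call. In d2-FVFp against d2-FVFn, 0 of 30 genes were called higher, against 6.96% of 12943 genes tested, and 0 lower, against 1.47%, with DESeq2 giving the same counts. At an unadjusted p under 0.05, 5 were higher, against 18.3% of all genes, and 4 lower, against 15.1%, which is near those shares. The median was 0.11, against 0.01 over all genes. With no minimum fold, 2 genes were higher, against 9.96% of all genes, and 3 lower, against 6.57%, again near those shares. The sterol isomerase gene Ebp had 21 and 21.7 TPM in d2-FVFn and 32.7 and 46.3 TPM in d2-FVFp (log2 fold change 0.84, SE 0.21, adjusted p = 0.0345). Srebf1 had 31.9 and 33.8 TPM and then 47.1 and 47.9 TPM (0.48, SE 0.13, adjusted p = 0.0431). Neither gene overlapped between the groups, and without d2-FVFp replicate 1 Ebp passed the 2-fold minimum (1.09 on the log2 scale). The 3 lower genes, Acly, Fasn and Acaca, belong to the fatty acid group. Acly had 425 and 416 TPM in d2-FVFn and 300 and 345 TPM in d2-FVFp (-0.43, SE 0.11, adjusted p = 0.0393). Fasn had 172 and 174 TPM and then 125 and 138 TPM (-0.44, SE 0.11, adjusted p = 0.0306). Acaca had 18.6 and 15.8 TPM and then 12.4 and 11.1 TPM (-0.59, SE 0.15, adjusted p = 0.0408). The other fatty acid genes did not pass: Scd2 had a value of 0.56 (SE 0.18, adjusted p = 0.0735), Scd1 0.20 (SE 0.18) and Elovl6 -0.02 (SE 0.15). In the other roles the largest values were Tm7sf2 (0.87, SE 0.24, adjusted p = 0.0511) and Idi1 (-0.56, SE 0.20, adjusted p = 0.0985). Srebf2, at 80 and 96.2 TPM and then 113 and 108 TPM (0.28, SE 0.13, adjusted p = 0.173), did not pass. The T119 fit did not pair libraries by replicate number. With a replicate block and no minimum fold, calls over all genes rose from 1289 higher and 850 lower to 2626 higher and 2124 lower. Values that did not pass here therefore do not show unchanged levels.

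**Figure D5:**
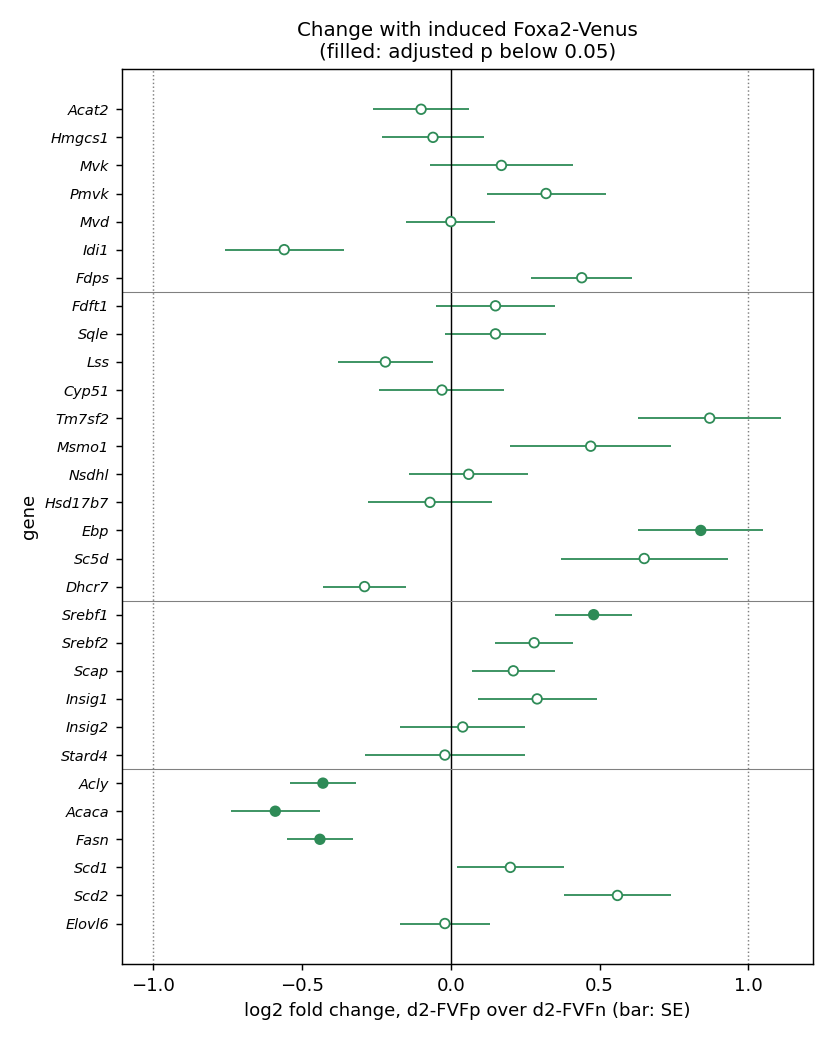
Log2 fold change between Venus-positive and Venus-negative cells of the doxycycline-induced line (x axis, bars: SE) for each of the 30 genes (y axis, grouped by role), with filled points for an adjusted p below 0.05 and dotted lines at a 2-fold change. All 30 values lie between -0.59 and 0.87; Acly, Acaca and Fasn are the filled points left of 0, and Ebp and Srebf1 those right of 0.

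Other genes of lipid metabolism were counted by function. The shares of all genes tested, to be read beside these counts, were 20.6% higher and 14.6% lower in control cells at day 3, 11.6% and 5.72% in ko cells, and 6.96% and 1.47% in the T119 cells. Of 9 genes on isoprenoid branches, none were higher and 1 was lower at day 3 in control cells: Pdss1, which makes the ubiquinone side chain, at -2.18 (SE 0.35, adjusted p = 0.00128). None were called in ko cells. Between the genotypes at day 3, Pdss1 was the 1 gene of this list called higher in d3ko, against 4.75% of all genes (1.28, adjusted p = 0.0378). It had 7.09, 8.5 and 9.78 TPM in d3con and 23.9, 10.2 and 27.1 TPM in d3ko. With no minimum fold, Coq2, another gene of ubiquinone synthesis, was higher in both genotypes (0.82, SE 0.18, and 0.81, SE 0.18), and Fntb, a farnesyltransferase subunit, lower (-0.94, SE 0.16, and -0.65, SE 0.16); these were named after their values were seen.

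Of 12 genes of sterol traffic, 4 were called higher and 1 lower in control cells, and 3 higher and none lower in ko cells. Mylip, a ligase that removes lipoprotein receptors, rose by 2.29 (SE 0.53, adjusted p = 0.00676) in control and 1.81 (SE 0.52, adjusted p = 0.0294) in ko cells. Npc1, which exports cholesterol from lysosomes, was the one gene of the list called lower in d3ko against d3con (-1.28, SE 0.15, adjusted p = 0.00557). Its level was 37, 28.9 and 39.7 TPM in d3con and 13.8, 15.2 and 14.7 TPM in d3ko, so it was low in all 3 d3ko libraries, replicate 2 included. Soat1, which esterifies cholesterol, rose by 2.22 (SE 0.29) in control and 1.71 (SE 0.28) in ko cells. Abca1, which exports cholesterol from the cell, had 3.51 and 3.09 TPM in d0con and 0.27, 0.07 and 0.08 TPM in d3con (-4.72, SE 0.76, adjusted p = 0.0012). It had 1.8, 0.43 and 2.25 TPM in d3ko and was higher there than in d3con (3.38, SE 0.70, adjusted p = 0.0208). Abca1 thus moved against the synthesis genes in control cells, at a low level in every library.

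Of the 18 tested genes of desaturation, elongation and lipid assembly, 11 were called higher and 2 lower in control cells, and 6 higher and 1 lower in ko cells. Acss2, which makes acetyl-CoA from acetate, rose by 2.55 (SE 0.30) in control and 2.33 (SE 0.30) in ko cells. In control cells the elongase Elovl7 rose by 2.85 (SE 0.72), with 2.05 and 2.06 TPM in d0con and 22.1, 5.64 and 23.1 TPM in d3con. In ko cells the desaturase Fads1 rose by 1.87 (SE 0.23) and Acsl3, which activates fatty acids, by 1.71 (SE 0.23). Dgat2, which makes triglycerides, was lower in d3ko than in d3con (-1.31, SE 0.29, adjusted p = 0.0246), and Acacb, the mitochondrial carboxylase, was higher (1.5, SE 0.40, adjusted p = 0.0439). In the T119 cells 3 were called higher and none lower: Elovl7 (2.86, SE 0.32), Me1 (1.62, SE 0.19), which supplies NADPH, and Acss2 (1.16, SE 0.24). Of 10 tested genes of fatty acid oxidation, 3 were higher and 4 lower in control cells, and 3 higher and 1 lower in ko cells. Cpt1b, the muscle form of the carnitine transferase, rose by 2.70 (SE 0.29) in control and 2.16 (SE 0.28) in ko cells. Cpt1a, the more widespread form and gate of mitochondrial fatty acid entry, had 13.7 and 11 TPM in d0con, 2.31, 1.38 and 1.18 TPM in d3con, and 26.5, 7.54 and 57.7 TPM in d3ko (d3ko against d3con 4.22, SE 0.67, adjusted p = 0.0107). In the T119 cells Slc25a20, the carnitine carrier, was the one gene called (1.52, SE 0.20, adjusted p = 0.00489).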

How the data were processed

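RNA-seq libraries were made with a low-input SMART-Seq kit without strand. The authors aligned reads to mm10 with STAR and quantified genes with RSEM; versions are not given in the sources used here. The deposited expected counts are RSEM's estimated counts per gene, and the deposited TPM values are scaled by the authors for length and depth. Effective lengths put replicate 1 of d3con and d3ko at 75-base reads and the others at 50. Expected counts were rounded, filtered (at least 1 CPM in at least 2 libraries of a fit), scaled with TMM and tested with edgeR 4.0.16 (R 4.3.3), quasi-likelihood F test, with Benjamini-Hochberg adjustment over all genes tested. All day 0 and day 3 libraries were fitted together, and the T119 libraries on their own. A call needed an adjusted p under 0.05 and a log2 fold change above 1 in size. The SE is the log2 fold change divided by the square root of F. DESeq2 1.42.0, other scaling and filters, blocks and left-out libraries were alternatives. Tests were checked on simulated counts.

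The genes, lists and motifs were chosen with earlier results of these data known. Statistics are given for called genes and, in a role group with none, for the gene with the largest change; of other lists, up to 3 called genes per comparison with a mean of at least 1 TPM in the higher group were eligible for naming. Within a genotype, replicates 1 and 2 carry the same clone on both days in the study's sample list, so the number pairs them; deviations of same-numbered libraries correlated at -0.03 to 0.07 between days. Between genotypes at day 3 the correlations were 0.52, 0.29 and -0.02, and between the T119 groups 0.23. Results for the list of SREBP processing genes are not reported here.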

Additional observations from a re-analysis of the deposited data

How the results depend on the processing

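Counts of the 30 genes were recomputed under DESeq2, median-of-ratios scaling, no filter, a mean count of at least 50, no minimum fold, only the 2 groups fitted, blocks for replicate or clone, and without single libraries or both 75-base libraries; summing the day 3 libraries of 1 clone was added after seeing the data. For d3con against d0con, 21 to 27 were higher and 1 lower under all of these. For d3ko against d0ko, 12 to 22 were higher with a library left out, 15 with only the 2 groups fitted and 21 with the replicate block. No minimum fold gave 1 lower there, 6 lower for d3ko against d3con, and 2 higher and 3 lower in the T119 cells. With a library left out, 0 to 9 were lower for d3ko against d3con and 0 to 7 for the interaction, both highest without d3ko replicate 2, and 0 to 1 were higher in the T119 cells, the 1 without d2-FVFp replicate 1. Apart from that 21 (19 without it), the replicate block changed no count: it gave 22 higher for d3con against d0con and 0 for d3ko against d3con. Of single genes, Fasn turned to 0.09 (block), 0.08 (without the 75-base libraries) and 0.05 (clones summed) in control cells and ranged from -0.25 to 0.08 with a library left out, Insig2 from -0.06 to 0.20 in ko cells and Hmgcs1 from -0.04 to 0.25 at day 0. The causes were not tested. With 2 or 3 libraries a group, smaller differences could not be resolved.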
